A study of Homo sapiens with 6 samples.

Results

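The regions described here are the stretches of chromosome 1 in which H3K27me3, the trimethylated lysine 27 of histone H3, differed between OTX2-silenced and control medulloblastoma cells in the authors' differential table. All rows of that table on chromosome 1 were taken, which gave 587 of 5401 regions. They were set apart by position (GRCh38): 366 regions on the long arm start beyond 143000000, 153 regions on the short arm end before 121700000, and 68 regions lie between these limits, around the centromere. The other 4814 regions of the table are called the rest of the genome. Within the table the split used chromosome and position only, but every row had passed the authors' significance cutoff on the same reads. Earlier results of these data were known when the regions and gene lists were chosen.

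The cells were D283, an established Group 3 medulloblastoma line, grown as floating tumorspheres in neural precursor medium. In the OTX2low condition OTX2 was silenced with 30 nM siRNA, and in the OTX2high condition the cells received a non-silencing scramble siRNA. OTX2 is a homeodomain transcription factor that is highly expressed in Group 3 medulloblastoma. The design asked how 2 histone marks, H3K27me3 and H3K4me3, relate to the silencing of transcription factors. With 1 library for each mark in each condition there is no replicate to check a difference against, and no p-value is given: a test on the reads of 2 libraries compares those libraries and not the conditions. OTX2 itself lies on chromosome 14, and its transcript level was not measured in these files.

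H3K27me3 is deposited by Polycomb repressive complex 2, whose catalytic subunit is EZH2 or EZH1, and marks genes kept silent. In mammals the complex is known to gather at CG-rich promoters of developmental regulators, where it can form domains many kilobases long. H3K4me3 marks the promoters of active genes, and promoters that carry both marks are called bivalent. IgG libraries record the reads that a locus gives without a specific antibody, so they follow how much DNA of that locus enters the library and how well it can be sequenced and mapped.

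After filtering, the H3K27me3 libraries held 40271458 tags for the list whose header names OTX2low and 33885628 for the list whose header names OTX2high, and the IgG libraries named in those headers held 55079542 and 85840108 tags. The sample labels of the 2 H3K27me3 peak lists are the other way round. The differential table names its conditions as the headers do, and its names were used for every direction. If instead the sample labels hold, each H3K27me3 direction turns round. Labels and headers of the H3K4me3 lists agree. The OTX2low H3K4me3 list was called against the IgG library of 55079542 tags, as was the H3K27me3 list whose header names OTX2low. The pairing with IgG libraries thus goes with the headers and not with the labels. Titles and labels of the IgG samples also conflict, so these were assigned to no condition, and IgG values are named by the H3K27me3 library they were set beside.

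A region's value is its number of reads after the authors' scaling, given as normalized reads, and each log2 value is the log2 of OTX2low over OTX2high. The interval of 95% beside a log2 value comes from the whole reads and covers counting error only. The authors also give each library's ratio of ChIP over IgG reads in the region. Regions are called strong where the higher of the 2 ratios was 4 or more, middle from 2 to 4, and weak under 2.

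Promoters in strong regions ranged from 0 to 38 CG on the long arm and from 3 to 37 CG on the short arm, and 7 are shown. Those shown run from 1 to 38 CG on the long arm and from 7 to 24 CG on the short arm, a narrower range. Each is the 250 bases before the gene start on the gene's own strand, from RefSeq GRCh38.p14, with every CG in capitals, and each gene start lies in a strong region. On the long arm these are LHX4 (chr1:180230014-180230263, plus strand, 30 CG), a LIM homeodomain factor of the pituitary and motor neurons, WNT3A (chr1:228006748-228006997, plus strand, 38 CG), a secreted Wnt ligand, TCHH (chr1:152115445-152115694, minus strand, 2 CG), which encodes trichohyalin of the hair follicle, and FCRLA (chr1:161706979-161707228, plus strand, 1 CG), an Fc receptor-like gene of B cells. On the short arm they are HES3 (chr1:6243929-6244178, plus strand, 7 CG), a basic helix-loop-helix repressor of neural progenitors, PAX7 (chr1:18630596-18630845, plus strand, 18 CG), a paired-box factor of muscle stem cells and the neural crest, and FOXD3 (chr1:63322317-63322566, plus strand, 24 CG), a forkhead factor of the early neural crest.
LHX4: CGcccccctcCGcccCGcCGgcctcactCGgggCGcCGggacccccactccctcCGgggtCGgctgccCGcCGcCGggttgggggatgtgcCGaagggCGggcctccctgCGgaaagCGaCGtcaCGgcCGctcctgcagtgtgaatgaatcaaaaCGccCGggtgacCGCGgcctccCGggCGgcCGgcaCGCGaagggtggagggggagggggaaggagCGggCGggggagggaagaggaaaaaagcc
WNT3A: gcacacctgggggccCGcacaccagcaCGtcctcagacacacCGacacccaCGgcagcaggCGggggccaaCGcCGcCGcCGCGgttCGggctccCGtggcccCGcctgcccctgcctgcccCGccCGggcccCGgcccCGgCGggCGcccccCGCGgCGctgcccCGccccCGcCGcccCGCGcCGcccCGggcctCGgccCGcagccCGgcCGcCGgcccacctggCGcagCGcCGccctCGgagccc
TCHH: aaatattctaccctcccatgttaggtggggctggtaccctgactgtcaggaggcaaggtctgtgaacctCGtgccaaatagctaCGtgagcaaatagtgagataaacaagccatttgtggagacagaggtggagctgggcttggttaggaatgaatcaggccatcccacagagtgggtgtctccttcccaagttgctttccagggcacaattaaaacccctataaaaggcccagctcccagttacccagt
FCRLA: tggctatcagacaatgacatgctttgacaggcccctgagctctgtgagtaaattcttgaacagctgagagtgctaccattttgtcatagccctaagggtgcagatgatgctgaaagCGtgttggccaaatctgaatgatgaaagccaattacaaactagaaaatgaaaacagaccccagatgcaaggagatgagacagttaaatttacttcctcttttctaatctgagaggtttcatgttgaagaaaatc
PAX7: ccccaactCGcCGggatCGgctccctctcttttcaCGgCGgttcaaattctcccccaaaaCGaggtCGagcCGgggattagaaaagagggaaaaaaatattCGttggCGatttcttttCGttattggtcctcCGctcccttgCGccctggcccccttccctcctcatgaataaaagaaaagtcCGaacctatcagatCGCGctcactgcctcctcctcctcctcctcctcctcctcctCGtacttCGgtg
FOXD3: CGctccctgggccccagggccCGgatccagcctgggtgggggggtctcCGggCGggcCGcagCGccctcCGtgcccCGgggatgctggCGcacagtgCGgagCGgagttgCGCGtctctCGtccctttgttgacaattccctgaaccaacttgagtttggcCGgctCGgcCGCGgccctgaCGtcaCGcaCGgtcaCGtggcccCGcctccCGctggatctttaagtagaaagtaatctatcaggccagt
HES3: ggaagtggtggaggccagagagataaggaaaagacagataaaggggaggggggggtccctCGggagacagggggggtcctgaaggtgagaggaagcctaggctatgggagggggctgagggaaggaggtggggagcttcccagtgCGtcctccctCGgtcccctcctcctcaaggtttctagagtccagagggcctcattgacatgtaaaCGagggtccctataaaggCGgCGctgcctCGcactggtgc

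Over all 22155 promoter entries of protein-coding genes the median was 16 CG in these 250 bases, and 54.7% held 15 or more. Among the 21 entries whose start lay in a strong region of the long arm, the median was 8 CG and 42.9% held 15 or more. Among the 38 entries in strong regions of the short arm, the median was 18 CG and 57.9% held 15 or more. The long arm has fewer CG at its promoters in general: its 1083 entries outside any differential region had a median of 12 CG, against 17 CG for 1194 such entries on the short arm. Several genes have more than one entry, so these numbers count promoters and not genes.

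The arms of chromosome 1 differed in direction. On the long arm 78 regions were higher in OTX2low and 288 higher in OTX2high, so 21.3% (95% Clopper-Pearson interval 17.2 to 25.9%) were higher in OTX2low. On the short arm 95 regions were higher in OTX2low and 58 higher in OTX2high, so 62.1% (53.9 to 69.8%) were higher in OTX2low. Over all 5401 regions of the table, 42.5% were higher in OTX2low and 57.5% in OTX2high. The median log2 value was -0.63 on the long arm (quartiles -0.69 and -0.44) and 0.33 on the short arm (quartiles -0.59 and 0.38), a difference of -0.95. The intervals count regions as independent, although neighboring regions share their libraries.

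The arms held different mixtures of weak and strong regions. Weak regions made up 281 of the 366 regions on the long arm (76.8%) and 46 of 153 on the short arm (30.1%), against 55.1% of all regions. Strong regions were 45 on the long arm (12.3%) and 75 on the short arm (49.0%), against 30.5% of all regions. Middle regions were 40 on the long arm and 32 on the short arm, and 14.4% of all regions. Per megabase, the long arm held 2.65 weak and 0.42 strong regions, and the short arm 0.38 weak and 0.62 strong regions.

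Within a class, most regions had the same direction on both arms. Of the weak regions, 7 of 281 on the long arm and 5 of 46 on the short arm were higher in OTX2low, against 4.40% of all weak regions. Of the middle regions, 29 of 40 and 17 of 32 were higher in OTX2low, against 69.2% of all middle regions. Of the strong regions, 42 of 45 and 73 of 75 were higher in OTX2low, against 98.9% of all strong regions. Judged by the ratios over IgG in place of reads, 42 of 45 and 70 of 75 strong regions were higher in OTX2low. The median log2 value of the long arm minus that of the short arm was 0.01 among weak regions, -0.04 among middle regions and -0.06 among strong regions. Compared within a class, the medians of the arms thus differed far less than over all their regions together, where the difference was -0.95. The classes come from the same 2 libraries and go with direction over the whole table, so weak and strong medians had little room to differ. In middle regions the share higher in OTX2low was 72.5% on the long arm and 53.1% on the short arm.

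**Figure D1:**
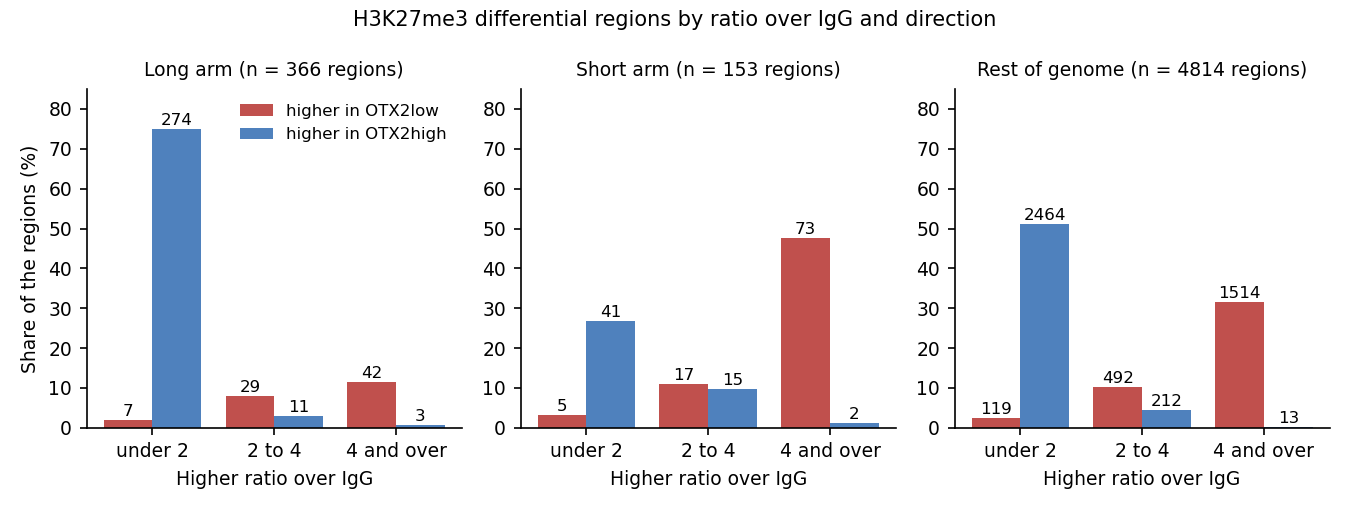
Share of the H3K27me3 differential regions (y axis, %) by the higher of the 2 ratios over IgG (x axis), for regions higher in OTX2low (red) and in OTX2high (blue); numbers over the bars count regions. On the long arm 274 of 366 regions are weak and higher in OTX2high, and on the short arm 73 of 153 are strong and higher in OTX2low.

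**Figure D2:**
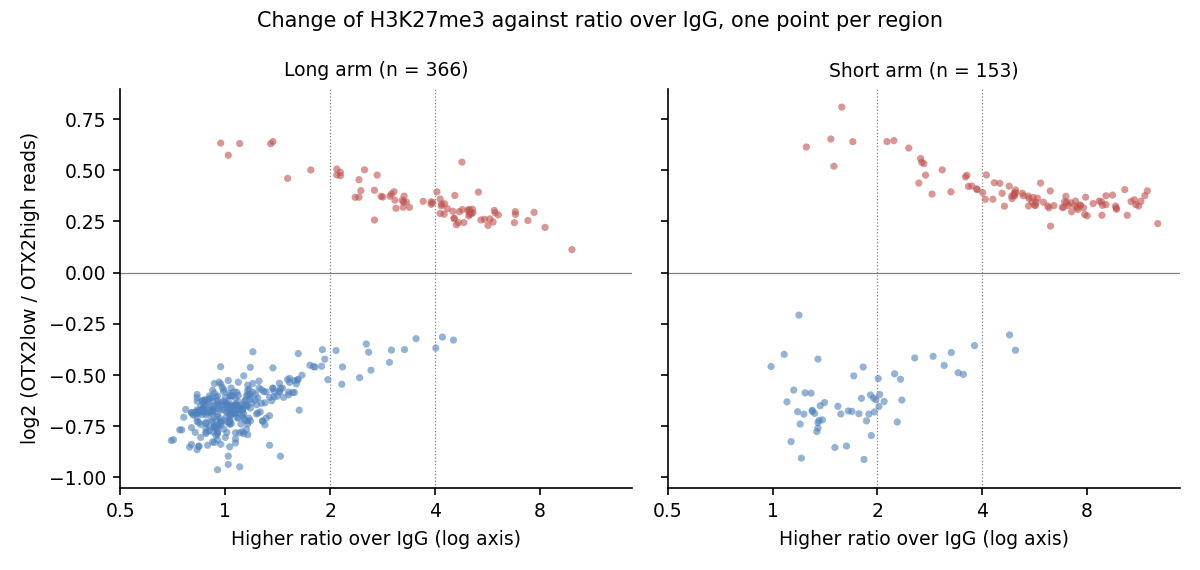
Log2 of OTX2low over OTX2high reads (y axis) against the higher ratio over IgG (x axis, log scale), one point per region, long arm left and short arm right; dotted lines mark ratios of 2 and 4. Most points left of the first line lie below 0 and most right of the second line above 0 on both arms.

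Whole reads, before the authors' scaling, also split by class, but they are not corrected for the depth of the libraries. In the strong regions the median was 1345 reads in OTX2low and 875 in OTX2high on the long arm, and 1236 and 729 on the short arm, with more reads in OTX2low in all 45 and all 75 regions. In the weak regions the median was 164 reads in OTX2low and 195 in OTX2high on the long arm, and 179.5 and 201.5 on the short arm, and OTX2low had more reads in 8 of 281 and 6 of 46 regions. The scaling lowers OTX2low values and raises OTX2high values, so most strong regions differ less and the weak regions more after it. Whole reads thus favor OTX2low and are no check on the strong regions, of which 42 of 45 and 73 of 75 were higher in OTX2low after scaling.

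Strong regions on the short arm lay mostly in its outer part. Those starting in the first 10 Mb numbered 32 of 75 and covered 1.43 Mb, 30 more started between 10 and 30 Mb, and 13 lay in the rest of the arm. One dense stretch was chosen after its values were seen: from 2020001 to 3622000 the short arm held 20 strong regions, all higher in OTX2low, with log2 values of 0.24 to 0.44 and ratios over IgG of 5.88 to 12.8 in OTX2low and 4.55 to 12.4 in OTX2high. By ratio over IgG in place of reads, 18 of the 20 were higher in OTX2low and 2 in OTX2high. They covered 1.06 Mb. Of the 45 long-arm strong regions, 36 started between 143 and 170 Mb, in the part of the arm nearest the centromere, and 9 lay farther out. The median log2 value of the strong regions was 0.29 and 0.31 in these parts of the long arm and 0.33, 0.35 and 0.36 in those of the short arm.

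Among the lists, developmental transcription factors held the most genes with a region. Of 52 such genes on chromosome 1, 15 had a differential H3K27me3 region within 2000 bp of a gene end, 14 of them higher in OTX2low and 1 higher in OTX2high. Over all protein-coding genes 8.15% had such a region, 6.48% with all of theirs higher in OTX2low and 1.64% with all higher in OTX2high. The short arm held 11 of the 15 genes (of 33), all higher in OTX2low by reads and all in strong regions, with a median log2 value of 0.35. HES3 turns by its ratios over IgG, which were 6.46 in OTX2low and 6.85 in OTX2high. The long arm held 4 (of 19), 3 higher in OTX2low in strong regions and TBX19 higher in OTX2high in a weak region. Over the whole genome, 98.9% of strong regions and 4.4% of weak regions were higher in OTX2low. The directions at the listed genes thus followed the class of their regions and were not particular to transcription factors.

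LHX4 had the largest log2 value of any strong region on either arm. Its region, chr1:180219001-180245000, had 1985 normalized reads in OTX2low and 1365 in OTX2high, with ratios over IgG of 4.78 and 3.06, a log2 value of 0.54 (0.44 to 0.64). It covers the gene start whose 30 CG are printed above. The other strong regions had log2 values up to 0.39 on the long arm and 0.48 on the short arm. LMX1A, a LIM homeodomain factor of the roof plate and dopaminergic neurons, had 1137 and 915.8 (0.31, 0.18 to 0.44). TBX19, the T-box factor of pituitary corticotrope cells, went the other way with 177.6 normalized reads in OTX2low and 304.1 in OTX2high (-0.78, -1.05 to -0.51). Its ratios over IgG were 0.68 and 1.12, so the region held about as many ChIP as IgG reads, and it lies at the far end of the gene from the start.

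On the short arm PRDM16, a zinc finger factor of brown fat and neural stem cells, carried the longest region of either arm. It spans 142 kb, chr1:3304001-3446000, with 12493 normalized reads in OTX2low and 9813 in OTX2high, ratios of 11.4 and 9.47 and a log2 value of 0.35 (0.31 to 0.39). A region of 106 kb at the start of PRDM16 had 9699 and 7474 normalized reads (0.38, 0.33 to 0.42), and one of 108 kb within the gene had 9746 and 7742 (0.33, 0.29 to 0.38). HES4, a basic helix-loop-helix repressor of the Notch pathway, lies in a 117 kb region with AGRN, ISG15, PERM1 and other genes, which had 10270 normalized reads in OTX2low and 7786 in OTX2high (0.40, 0.36 to 0.44). These blocks each gave a log2 value within 0.06 of the short arm's strong median of 0.34.

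FOXD2 and FOXE3, forkhead genes of which FOXE3 acts in the lens, share a region of 66 kb with 4696 normalized reads in OTX2low and 3627 in OTX2high (0.37, 0.31 to 0.44), and so count as 1 region and 2 genes. PAX7 had 3266 and 2585 in chr1:18597001-18642000, with ratios of 8.32 and 6.55 (0.34, 0.26 to 0.41). TAL1, the basic helix-loop-helix factor of blood stem cells, had 1969 and 1548 (0.35, 0.25 to 0.45), and FOXD3 had 1361 and 1092 (0.32, 0.20 to 0.44). HES2, HES3, RUNX3 and DMRTA2 had log2 values from 0.32 to 0.48. The highest of these was at DMRTA2, a doublesex-related factor of the cortical hem, with only 353.4 normalized reads in OTX2low and 253.8 in OTX2high (interval 0.24 to 0.72). The RUNX3 region counted here held no gene start. Another region within RUNX3, chr1:24919001-24937000, held a start of the gene but lay too far from its ends to count. It had 1534 normalized reads in OTX2low and 1263 in OTX2high (0.28, 0.17 to 0.39), with ratios over IgG of 10.4 and 8.02.

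**Figure D3:**
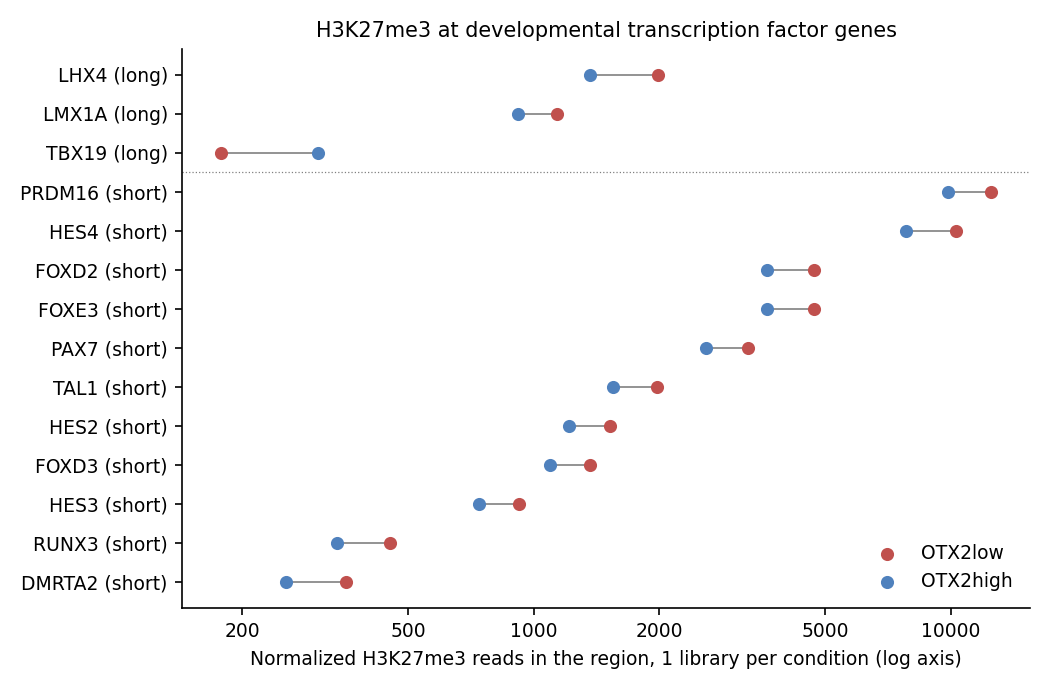
Normalized H3K27me3 reads (x axis, log scale) in the region with the most reads within 2000 bp of a gene end, for developmental transcription factor genes that have one, OTX2low in red and OTX2high in blue, 1 library each; long-arm genes stand above the dotted line. OTX2low is the higher of the 2 at every gene drawn except TBX19.

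Regions at signaling and neuronal genes went in both directions. Of 17 genes of Wnt, BMP and Nodal signaling, 2 had a region, both on the long arm, against 8.15% of all protein-coding genes. WNT3A had 1623 normalized reads in OTX2low and 1235 in OTX2high in chr1:227994001-228020000, with ratios of 4.05 and 3.72 (0.39, 0.29 to 0.50). LGR6, a receptor for R-spondins, had 204.7 and 293.8 in a weak region (-0.52, -0.78 to -0.26). Of 19 axon guidance genes 4 had a region. EFNA3, an ephrin ligand, had 877.2 normalized reads in OTX2low and 718.0 in OTX2high (0.29, 0.14 to 0.44). The other axon guidance genes were higher in OTX2high: NFASC, the axonal adhesion molecule neurofascin, had 622.7 and 778.6 (-0.32, -0.48 to -0.17), SEMA4A, a semaphorin, 151.3 and 226.4 (-0.58, -0.88 to -0.28), and on the short arm EPHB2, an ephrin receptor, 151.3 and 272.1 (-0.85, -1.14 to -0.56). The SEMA4A and EPHB2 regions were weak, with ratios over IgG of 0.83 and 0.93 in OTX2low and 1.43 and 1.63 in OTX2high. No promoter entry of LGR6, SEMA4A or EPHB2 lay in these regions.

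Of 34 neuronal and synaptic genes, 4 had a region, against 8.15% of all protein-coding genes. GABRD, the delta subunit of the GABA-A receptor, had the highest ratios over IgG on chromosome 1, 12.8 in OTX2low and 12.4 in OTX2high. Its region, chr1:2020001-2038000, held 1901 normalized reads in OTX2low and 1610 in OTX2high, a log2 value of 0.24 (0.14 to 0.34). SYT6, a synaptotagmin, had 548.4 and 372.7 (0.56, 0.36 to 0.75). On the long arm, BRINP3 had 238.8 normalized reads in OTX2low and 154.4 in OTX2high (0.63, 0.33 to 0.94), and KCNH1, a voltage-gated potassium channel, had 120.7 and 192.1 (-0.67, -1.01 to -0.34). Both were weak regions, with every ratio over IgG between 0.65 and 1.35, and the BRINP3 region held no gene start.

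Among 19 Polycomb, Trithorax and chromatin genes and 20 housekeeping genes of chromosome 1, 0 had a differential region at a gene end. Over all protein-coding genes 8.15% had one, and the lists of this paragraph are too short to tell their shares from that. Of 20 cell cycle genes and proto-oncogenes, PIK3C2B, a class II phosphoinositide kinase, had one, weak and higher in OTX2high (132.1 normalized reads in OTX2low and 209.2 in OTX2high, -0.66). Of 20 markers of immune, blood and endothelial cells, CD48 of lymphocytes had one, with 996.2 and 809.5 (0.30, 0.16 to 0.44). Of 20 markers of muscle and epithelium, 3 had one. LORICRIN of the cornified epidermis had 869.4 normalized reads in OTX2low and 710.0 in OTX2high (0.29), TNNI1, slow skeletal troponin I, 240.5 and 154.4 (0.64), and MYOG, the muscle factor myogenin, 151.3 and 261.8 (-0.79). The CD48 and LORICRIN regions were strong and the TNNI1 and MYOG regions weak.

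Counted over all protein-coding genes, 86 of 973 on the long arm (8.84%, 7.13 to 10.8%) and 73 of 1088 on the short arm (6.71%, 5.30 to 8.36%) had a region at a gene end. Both shares lie near the 8.15% of all genes. Of the long-arm genes 39 were higher in OTX2low, 46 in OTX2high and 1 mixed, and on the short arm 62 were higher in OTX2low and 11 in OTX2high. Genes at strong regions numbered 30 on the long arm and 52 on the short arm.

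A few more long-arm genes are named here after their values were seen. TCHH, PRR9 and LORICRIN belong to a cluster of epidermal differentiation genes. TCHH had 1721 normalized reads in OTX2low and 1467 in OTX2high in chr1:152101001-152119000 (0.23). CD1D, which presents lipids to T cells, had 2019 and 1682 (0.26), and the region of the complement receptors CR2 and CR1 had 1511 and 1276 (0.24). The region with FCRLA and FCGR2B had 3436 and 2818 (0.29), and reads at FCGR2B may be shared with its near-identical relatives. Other immune genes of the arm were higher in OTX2high: the region of FCRL6 and SLAMF8 had 436.4 normalized reads in OTX2low and 607.1 in OTX2high (-0.48), the chemokine genes XCL1 and XCL2 had log2 values of -0.70 and -0.68, and IL6R, the interleukin 6 receptor, -0.56.

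Of the 6 long-arm regions with the highest ratios over IgG, 5 had no protein-coding gene end. The highest was a 38 kb stretch with a cluster of tRNA genes, chr1:161441001-161479000, with 14151 normalized reads in OTX2low and 13091 in OTX2high, ratios of 9.89 and 9.73 and the smallest positive log2 value of the arm, 0.11 (0.08 to 0.15). H3K4me3 peaks covered 76.2% of it in the OTX2low list and 80.7% in the OTX2high list, and its IgG density of 37.7 and 35.4 reads per kb was above that of every other strong region of the chromosome. Next were the region of C2CD4D and THEM5, with ratios of 8.28 in OTX2low and 6.65 in OTX2high, and 3 regions at noncoding genes, among them LINC02802 and LINC01138, with ratios of 6.81 to 7.70 in OTX2low. A region over S100A8, a calcium-binding protein of myeloid cells, had ratios of 6.80 and 4.85.

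The 3 strong long-arm regions that were higher in OTX2high lay in the NBPF family, primate gene copies near the centromere. The longest, at NBPF14, had 3038 normalized reads in OTX2low and 3922 in OTX2high (-0.37, -0.44 to -0.30). A middle region at NBPF20 had 3181 and 4309 (-0.44, -0.50 to -0.37). Reads of such near-identical copies cannot be placed with certainty, and the same holds for the SRGAP2 copies on both arms and for AMY1A, AMY1B and AMY1C on the short arm. Strong regions higher in OTX2low lay nearby, among them that of LINC01138, chr1:148451001-148461000 (0.28). Mappability was not examined for regions of either direction. Named after their values were seen, the 2 strong short-arm regions higher in OTX2high were at PRAMEF11 (-0.38) and PRAMEF5 (-0.30).

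The largest log2 values in either direction came from weak and middle regions with few reads. On the short arm ST6GALNAC5, a sialyltransferase, had 588.6 normalized reads in OTX2low and 336.2 in OTX2high (0.81, 0.61 to 1.01), with ratios of only 1.58 and 0.89 over IgG, and H3K4me3 peaks covered 15.9% of the region in the OTX2low list and 17.3% in the OTX2high list. The next on that arm were a weak region within COL24A1, a collagen gene, with 195.9 normalized reads in OTX2low and 124.6 in OTX2high (0.65), and middle regions at IGSF21, with 327.1 and 209.2 (0.64, 0.39 to 0.91), and at TRNP1, with 192.4 and 123.5 (0.64, 0.30 to 0.99). The largest on the long arm were at TNNI1 and at DNAH14, an axonemal dynein (196.8 and 126.9, 0.63). The smallest on the long arm was a region with no gene, chr1:217410001-217420000, with 90.96 normalized reads in OTX2low and 177.2 in OTX2high (-0.96, -1.33 to -0.59), followed by one within PLXNA2, a plexin, with 91.83 and 177.2 (-0.95). On the short arm the smallest lay within TMCO4, with 115.5 and 217.2 (-0.91, -1.24 to -0.58).

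Local IgG density separated the arms in each class. It was derived as ChIP reads divided by the ratio over IgG and by length, which gives scaled IgG reads per kb and can be compared only within one library. Beside the OTX2low library, the median was 16.97 reads per kb on the long arm and 10.3 on the short arm, and beside the OTX2high library 18.5 and 10.7, ratios of 1.65 and 1.72. The long arm had the higher median in weak regions (17.2 against 12.1 beside OTX2low, 18.8 against 13.6 beside OTX2high) and in strong regions (16.0 against 9.50, 17.1 against 9.43). Beside OTX2low, 365 of 366 long-arm regions lay above the short-arm median, and 7 of 153 short-arm regions above the long-arm median. Strong regions of the rest of the genome had medians of 9.74 and 9.88, close to the short arm. Weak regions of the rest of the genome had medians of 16.7 and 17.3, close to the long arm. Chromosome 8 gave 657 of these 2583 weak regions, with medians of 28.4 and 31.3, which raises the pooled values.

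**Figure D4:**
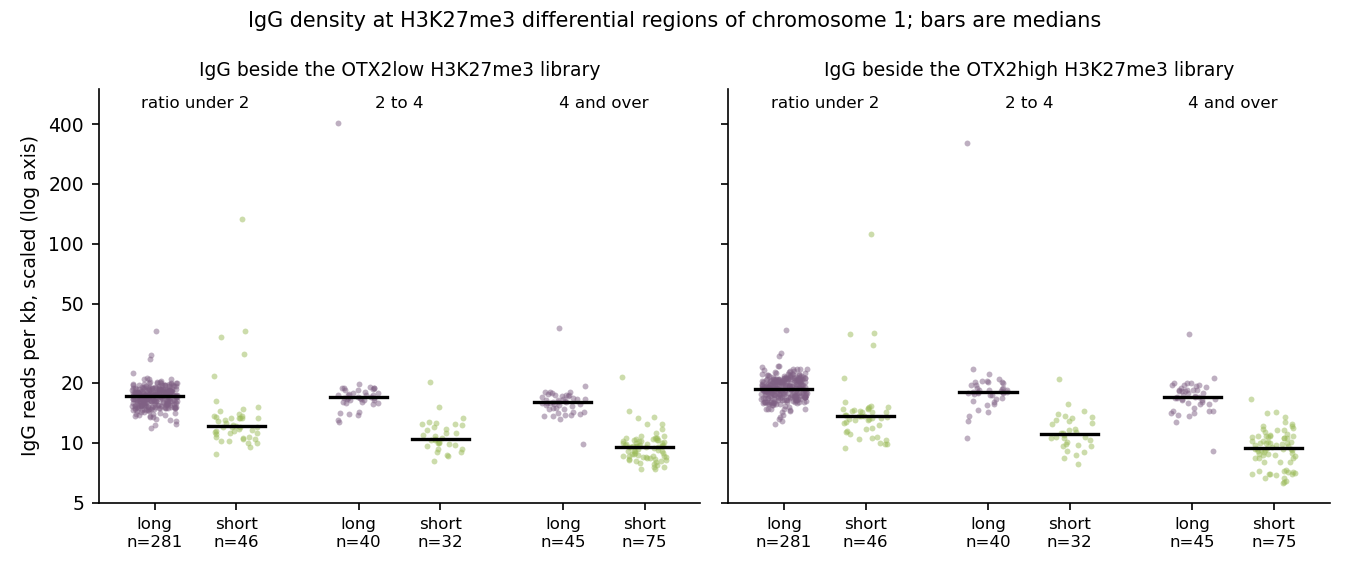
Scaled IgG reads per kb (y axis, log scale) at each region of the long and the short arm, by the higher ratio over IgG, beside the OTX2low library (left) and the OTX2high library (right); black bars are medians. The long arm has the higher median in all 3 classes and both libraries, and single regions reach over 100 on each arm.

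The density was even along the long arm. In its 11 bins of 10 Mb the median lay between 16.1 and 17.9 beside OTX2low and between 17.7 and 20.2 beside OTX2high. In the 13 bins of the short arm it lay between 8.85 and 15.1 and between 8.63 and 15.1, so the bins of the arms did not overlap. Among weak regions alone they did: the short-arm bin from 10 to 20 Mb reached 24.8 beside OTX2low and 26.2 beside OTX2high, with 6 weak regions.

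In weak regions ChIP reads per kb were nearly equal on the arms, 11.7 on the long arm and 11.8 on the short arm in OTX2low, and 18.4 and 18.2 in OTX2high. With the higher IgG density this gave lower ratios on the long arm, a median of 0.70 against 0.945 in OTX2low and 1.03 against 1.35 in OTX2high. In strong regions the long arm had more ChIP reads per kb, 80.5 against 63.6 in OTX2low and 67.3 against 52.1 in OTX2high, yet its ratios were lower, 5 against 6.79 and 4.02 against 5.48. The class of a region thus depends in part on its arm's IgG density. The DNA copy number of the arms was not measured in these files, and the part of IgG density in the counts by class and direction was not tested.

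The same difference was present at MACS2 peaks, which the differential test did not choose. The local background of each peak was computed from its summit pileup and fold enrichment, both the authors' values. It lay above the genome-wide floor at 96.3% of long-arm and 29.9% of short-arm H3K4me3 peaks in the OTX2low list, against 34.4% in the rest of the genome, and at 90.5% and 19.9% in the OTX2high list, against 28.4%. In the H3K27me3 lists it did so at 93.3% and 30.0% of peaks in the list labelled OTX2low and at 96.7% and 38.3% in that labelled OTX2high. The median background of the long arm over that of the short arm was 1.31 to 1.45 in the 4 lists. H3K4me3 peaks were about as dense on both arms, with 12.0 H3K4me3 peaks per Mb on the long arm and 12.7 on the short arm in the OTX2low list and 14.95 and 14.98 in the OTX2high list. H3K27me3 peaks numbered 67.6 per Mb on the long arm and 56.5 on the short arm in the list labelled OTX2low, and 77.0 and 79.8 in that labelled OTX2high.

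Set among the other chromosomes, the long arm ranked 1st of 24 (the arms and the other chromosomes up to X) in the share of peaks above the floor in all 4 lists, and 1st in IgG density at strong regions, followed by chromosome 17 in each case. In IgG density at weak regions it ranked 4th beside both libraries, after chromosomes 8, 20 and 19. It ranked 2nd in weak regions per Mb, after chromosome 8 with 4.53 and before chromosome 17 with 2.44, but 16th in strong regions per Mb. The short arm ranked 21st in weak and 9th in strong regions per Mb. Over the 24 units Spearman's rho between the share of H3K4me3 peaks above the floor and weak regions per Mb was 0.50, and 0.15 for strong regions per Mb. These units share the same libraries and IgG controls, so the values are a description.

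**Figure D5:**
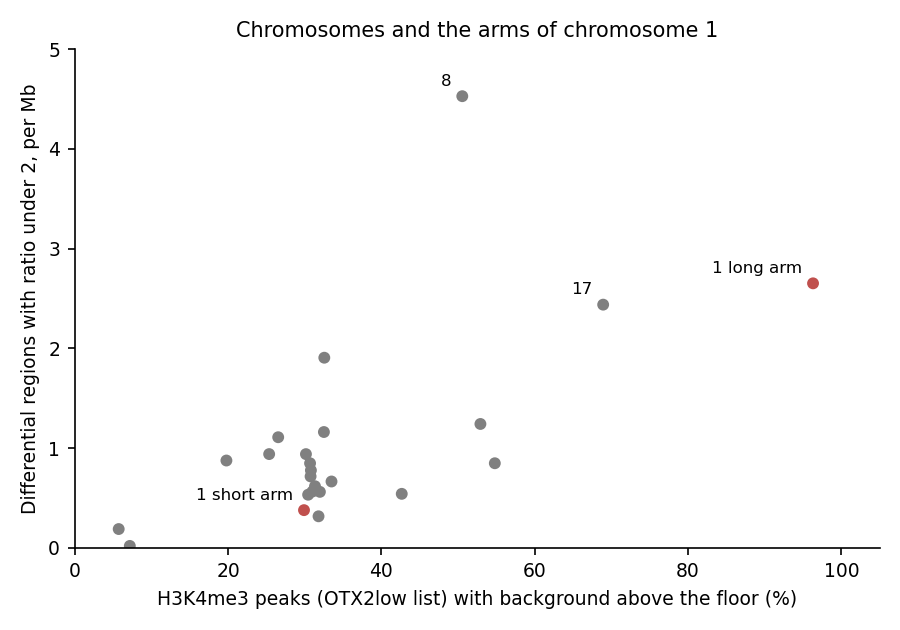
Weak H3K27me3 differential regions per Mb (y axis) against the share of H3K4me3 peaks in the OTX2low list whose local background is above the genome-wide floor (x axis, %), one point per chromosome or arm of chromosome 1 (red). The long arm lies farthest right at 96.3%, and chromosome 8 is highest at 4.53 weak regions per Mb.

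H3K27me3 peaks touched the strong regions of both arms and few of the weak ones. A peak of either list touched 114 of 366 long-arm regions (31.1%, 26.4 to 36.2%) and 115 of 153 short-arm regions (75.2%, 67.5 to 81.8%). Among weak regions the shares were 29 of 281 (10.3%) and 10 of 46 (21.7%), while all 45 and all 75 strong regions had a peak. Peaks and classes both rest on ChIP over IgG in the same libraries, so this was largely set by the definition of strong. In the list labelled OTX2high, whose header names OTX2low, peaks covered a median of 77.8% (long) and 77.7% (short) of a strong region. In the list labelled OTX2low, whose header names OTX2high, they covered 26.5% and 19.5%. The lists were called with fragment lengths of 169 bp and 78 bp, so these shares compare the arms within a list and not the conditions. An H3K4me3 peak lay in 25 of the 45 strong long-arm regions (55.6%) and 36 of the 75 strong short-arm regions (48.0%).

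Among the strong regions, 34 of 45 on the long arm and 59 of 75 on the short arm held no differential H3K4me3 region. Where they held one, it was higher in OTX2low alone in 3 and 11 regions, higher in OTX2high alone in 5 and 4, and both in 3 and 1. Of the weak regions, 251 of 281 and 41 of 46 held none. At LHX4 and WNT3A it was higher in OTX2high, opposite to H3K27me3, and at FOXD3 and HES3 higher in OTX2low. Over each arm, 26.2% of 1240 long-arm and 21.3% of 1148 short-arm H3K4me3 regions were higher in OTX2low, against 26.1% of all H3K4me3 regions (73.9% were higher in OTX2high), so the contrast between the arms in the direction of H3K27me3 had no counterpart of that size in H3K4me3.

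At the limits of the arms the direction was the same on both sides. The last region inside the short arm, over SRGAP2C, had 232.7 normalized reads in OTX2low and 386.5 in OTX2high, and the next one outside it 527.4 and 690.6. The first region inside the long arm, chr1:143175001-143285000, had 56260 and 73240 normalized reads with an IgG density of 402.7 beside OTX2low and 320.1 beside OTX2high, and the nearest one outside it had 10322 and 13233. All 4 were higher in OTX2high.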

How the data were processed

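H3K27me3 and H3K4me3 were profiled by ChIP-seq in 1 library per mark and condition of D283 cells. The submitters' processing notes name Bowtie2 2.3.3.1, GRCh38 and MACS2 2.1.1.20160309. Each library had its own peak calling with an IgG control and a q-value cutoff of 0.05, per the file headers. Each peak has a summit pileup signal, a -log10 p-value and q-value, and a fold enrichment (ratio) over local background, as deposited. Differential regions came from diffReps 1.55.6 with a G-test of 1 library against 1, windows of 10000 bp for H3K27me3 in steps of 1000 bp, and a p cutoff of 0.0001, per the file headers. That table names hg19 as its genome in the command line, but its coordinates were read as GRCh38, the genome of the processing notes. In the peak lists, 65.6% of promoter entries of chromosome 1 in GRCh38 had an H3K4me3 peak within 500 bp. That share describes the peak lists and does not test the differential table itself. Its deposited columns hold normalized read signal, a ratio over IgG, and an adjusted p-value, which was used only as a filter. The authors' log2 column runs as OTX2high over OTX2low and was not used. Another 4 columns of means repeat the read columns and were not used.

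Reads had been divided by 1.14 in OTX2low and 0.87 in OTX2high, so 1 read was worth 0.8746 and 1.1434 normalized reads. Dividing by this step gave whole numbers within 0.05 for 100% of values. Log2 intervals (95%, exact conditional Clopper-Pearson) rest on these reads. PCR reads are not independent molecules, so intervals cover counting error only. The step was found in the values, and no count test was run. The interval and density functions were tested on simulated data.

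Genes were the 2061 protein-coding genes of chromosome 1 in the RefSeq table of GRCh38.p14. A region within 2000 bp of either end of a gene counts for it, and the region with the most reads gives its values. Promoter entries matched 1747 of these genes (2380 entries). Genes and regions were named by rule: per arm the 6 highest ratios over IgG, the 4 largest and 4 smallest log2 values (at least 200 normalized reads in all) and the 3 longest regions, and per list the genes with a region; others are said to be chosen after their values were seen or are shown for their promoters. There were 9 lists with 221 genes, and the values of 1 listed gene are not reported here. Members and lists were chosen with earlier results of these data known. MACS2 background was taken as (pileup + 1) / fold enrichment - 1, and called above the floor when more than 1% over it. Lengths of chromosomes end at their last gene. Python 3.11.15, numpy 2.4.6, pandas 2.3.3 and scipy 1.17.1 were used.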

Additional observations from a re-analysis of the deposited data

How the results depend on the processing

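The 15 main values were recomputed under the alternatives, 87 values in all, of which 56 stayed, 30 moved and 1 reversed. A count stayed if it was within 1.5 times the main value. Any other value stayed if it lay within limits from 95% intervals of the main medians or shares. These intervals count regions as independent and are not the spread of the regions. Keeping regions with at least a 2-fold ratio over IgG reversed the long-arm median log2 value to 0.30, raised the short-arm median to 0.35, left 14 long-arm and 17 short-arm regions higher in OTX2high, and brought the difference between the arms to -0.047; by construction this removes the weak regions. An adjusted p of at most 0.0001 in the authors' deposited table left 24 long-arm regions higher in OTX2low and 101 in OTX2high, 56 and 23 on the short arm, a long-arm median of -0.67, a difference of -0.998, 20 strong long-arm regions and 43 long-arm genes. Log2 of the ratios over IgG gave medians of -0.47 and 0.17 (long and short arm), a difference of -0.64. Recentring on the median of all regions gave -0.15 and 0.80, and a pseudocount of 10 gave -0.60 on the long arm. The ratio of IgG densities was 1.42 (OTX2low) and 1.38 (OTX2high) over weak regions alone and 2.32 and 2.33 as total IgG over total length, which the region at the long-arm limit enters in full. Strong long-arm regions numbered 85 with a ratio of 2 in either library and 20 with 4 in both. Regions in an H3K27me3 peak were 21.0% (long) and 60.8% (short) where peaks had to cover 20% of the region, and 25.4% and 67.3% with a -log10 q of at least 5. Long-arm genes numbered 160 within 10000 bp and 158 over gene bodies. No paired analysis was possible because each condition has 1 library per mark. Depth limits weak regions most: on the long arm their median was 164 whole reads in OTX2low and 195 in OTX2high, against 1345 and 875 in strong regions.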

Other observations

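The 68 regions between the arm limits, around the centromere, touched the ends of 0 protein-coding genes. All 68 were higher in OTX2high, with a median log2 value of -0.47, and 66 of them were weak. Of the 36 differential H3K4me3 regions there, 33 (91.7%) were higher in OTX2low and 3 in OTX2high. Their median log2 value was 2.01, against -0.58 on the long arm and -0.62 on the short arm. Reads in this satellite-rich stretch map to many places, and H3K4me3 peaks there had a median local background of 66.6 in the OTX2low list, against 1.88 on the long arm and 1.40 on the short arm.

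The authors' deposited table of clusters of H3K27me3 regions lists 61 clusters, 7 on the long arm and 2 on the short arm. In the authors' deposited table the cluster at WNT3A on the long arm held 4 regions, which were all higher in OTX2low, as were the 4 at CD1D, also on the long arm, and the 4 at DISP3 on the short arm. The authors' deposited table also lists clusters of 6 regions at SRGAP2, 5 at ATP8B2 and IL6R, and 3 each at NBPF12, NFASC, MTR and the AMY1 genes, and the regions of these clusters were all higher in OTX2high. Median log2 values were 0.44 at WNT3A, 0.32 at CD1D and 0.35 at DISP3, and -0.69 at ATP8B2 and IL6R, which encodes the interleukin 6 receptor.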
